A study of Mus musculus with 3 samples.

Results

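Gamma-delta T cells of the mouse heart were read from droplet single-cell RNA libraries of sorted leukocytes. A barcode was a member when it held at least 2 UMIs (unique molecular identifiers, each standing for 1 captured transcript) of the CD3 genes Cd3d, Cd3e and Cd3g together. It also needed at least 1 UMI of Trdc or Tcrg-C1, 0 UMIs of Cd79a, and at most 3 UMIs of C1qa, C1qb and C1qc together. Trdc encodes the constant region of the T cell receptor delta chain and Tcrg-C1 that of a gamma chain, while Cd79a marks B cells and the C1q genes mark macrophages. Members were thus chosen by their UMIs of these 9 genes, whose levels are given below as description only. The rule found 93 members among 32215 cells. The remaining 958 cells that met the CD3, Cd79a and C1q conditions but held 0 UMIs of Trdc and Tcrg-C1 served as the comparison, and are called other Cd3-positive cells.

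The study had 3 groups with 1 library each, named Sham, MI and MI-E, from hearts of C57BL/6J mice aged 8-9 weeks, with no engineered allele named for any group. By its name MI is the heart after myocardial infarction. What the E of MI-E stands for, when after surgery the hearts were taken and how many were pooled are not stated in the labels. The surgery that the labels describe, ligation of the left anterior descending artery under isoflurane, is worded identically for all 3 libraries, Sham included, so the groups are known here only by name. Immune cells were sorted on CD45, the surface protein shared by leukocytes, before loading.

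Gamma-delta T cells carry a receptor built from a gamma and a delta chain in place of the alpha and beta chains of most T cells. In mice many of them leave the thymus already set to make interleukin 17 and settle in barrier and other tissues. Others make interferon gamma and cytotoxic proteins. Interleukin 17A acts on stromal and myeloid cells and promotes the recruitment of neutrophils, and gamma-delta T cells are a known source of it after heart injury in mice.

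The deposited libraries held 9095 to 12707 barcodes, of which 11105 (Sham), 8831 (MI) and 12279 (MI-E) were kept. Kept cells had median depths of 2760 (Sham), 9789 (MI) and 7494 UMIs (MI-E), but the members of Sham and MI-E were of like depth, with medians of 4098 and 4109 UMIs. The 9 members of MI were deeper, with a median of 8569. Summed over its members, Sham gave 121438 UMIs, MI 67073 and MI-E 296164. Between 22 and 42 barcodes were shared by each pair of libraries, and 1 member each of Sham and MI had a barcode that also occurred in another library. With 1 library per group, no difference between groups has a replicate check, and all intervals below are 95% intervals of counting error only.

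The gamma constant genes resemble each other closely, which bears on the reading of every gamma count. The last coding exon of the 4 genes, read from the GRCm38 reference genome, is shown on the coding strand with capitals marking bases that differ from Tcrg-C1. All 4 lie on chromosome 13, at chr13:19216476-19216615 (+ strand) for Tcrg-C1, chr13:19305063-19305202 (− strand) for Tcrg-C2, chr13:19263255-19263394 (+ strand) for Tcrg-C3 and chr13:19352201-19352340 (+ strand) for Tcrg-C4.
Tcrg-C1: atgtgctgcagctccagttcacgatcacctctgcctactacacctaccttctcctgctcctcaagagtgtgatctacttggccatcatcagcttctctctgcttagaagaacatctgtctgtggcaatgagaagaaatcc
Tcrg-C2: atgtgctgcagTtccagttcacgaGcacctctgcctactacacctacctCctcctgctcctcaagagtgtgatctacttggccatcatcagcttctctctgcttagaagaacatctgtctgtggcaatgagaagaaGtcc
Tcrg-C3: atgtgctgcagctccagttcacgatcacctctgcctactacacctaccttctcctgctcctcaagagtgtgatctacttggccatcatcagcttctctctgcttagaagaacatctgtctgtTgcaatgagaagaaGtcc
Tcrg-C4: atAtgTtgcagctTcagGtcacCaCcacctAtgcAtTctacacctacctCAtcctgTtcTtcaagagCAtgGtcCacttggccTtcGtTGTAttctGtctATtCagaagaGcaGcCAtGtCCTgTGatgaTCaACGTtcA
Over these 140 bases Tcrg-C2 differs from Tcrg-C1 at 4 positions (97.1% identity), Tcrg-C3 at 2 (98.6%) and Tcrg-C4 at 44 (68.6%). The longest run shared with the Tcrg-C1 transcript is 104 bases for Tcrg-C2, 122 for Tcrg-C3 and 29 for Tcrg-C4. A read inside such a run cannot be assigned to 1 gene by its letters, so counts of Tcrg-C1, Tcrg-C2 and Tcrg-C3 are uncertain between the genes. Tcrg-C2, outside the rule, had 3, 5 and 37 UMIs in members of Sham, MI and MI-E.

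Members numbered 27 of 707 Cd3-positive cells in Sham, 9 of 79 in MI and 57 of 265 in MI-E. Sham thus had a share of 3.82% (Clopper-Pearson interval 2.53 to 5.51), MI of 11.4% (5.34 to 20.5) and MI-E of 21.5% (16.7 to 27.0). The intervals of Sham and MI-E do not overlap, and that of MI meets both. Of all kept cells, members made up 0.243% (0.160 to 0.354) in Sham, 0.102% for MI (0.0466 to 0.193) and 0.464% for MI-E (0.352 to 0.601). On this denominator MI was the lowest of the 3 libraries. With each cell thinned to 1000 UMIs before the rule was applied, the share of Cd3-positive cells was 3.07% (12 of 391), 6.82% (3 of 44) and 16.4% (24 of 146, interval 10.8 to 23.5), so the order of the libraries was the same at equal depth. Of the kept cells 9450, 8649 and 11981 reached 1000 UMIs and entered that count.

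Receptor transcripts were sparse in single cells. Trdc was found in 22, 7 and 36 members of Sham, MI and MI-E and Tcrg-C1 in 13, 8 and 43. Both were found in 8, 6 and 22 members. A single receptor UMI admitted 13 of the 27 Sham members, 2 of 9 in MI and 18 of 57 in MI-E, and these lie just inside the threshold. Just outside it, 1 Sham cell and 1 MI-E cell held receptor UMIs with a single CD3 UMI, and 4, 1 and 6 cells were left out for C1q UMIs alone. In C1q-positive cells, which should lack both genes, a receptor UMI was found in 7 of 3975 cells of the Sham library (0.176%), 6 of 5500 of MI (0.109%) and 8 of 3734 of MI-E (0.214%), at median depths of 4712, 11702 and 11850 UMIs. Natural killer cells also transcribe Trdc: it was found in 14 of 151 Cd3-negative cells with Ncr1 or Klrb1c in Sham.

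The label was checked against transcripts that the rule did not use. Trac, the alpha chain constant gene, was found in 8 of 27 members from Sham, 3 of 9 from MI and 17 of 57 from MI-E, against 422 of 680, 48 of 70 and 139 of 208 other Cd3-positive cells. In Sham it was found in 6 of 13 members with a single receptor UMI and in 2 of 14 with more. The same counts were 1 of 2 and 2 of 7 in MI, and 7 of 18 and 10 of 39 in MI-E. Sham members with a single receptor UMI were thus nearer to the other cells on this check. Transcripts of the beta chain genes Trbc1 or Trbc2 were found in 25, 9 and 56 members, and beta transcripts without a productive receptor are known in gamma-delta T cells of mice. Cd4 had 0 UMIs in the members of every library, which allows at most 24.7, 44.7 and 10.1 CPM (UMIs per 1000000 UMIs of the class) in Sham, MI and MI-E. Cd8a or Cd8b1 was found in 5, 1 and 1 members. Of 10 NK cell markers 4, 3 and 5 were detected in members of Sham, MI and MI-E. Together the markers stood at 189, 1968 and 1135 CPM, against 942, 2278 and 1324 CPM in other Cd3-positive cells. Among them Ncr1 and Klrb1c were at 0 in Sham and MI. In MI-E Klrb1c was at 0 and Ncr1 had 4 UMIs in 1 cell, and Gzma had 31 UMIs in 1 MI cell. Over all members, Trac thus differed from the other Cd3-positive cells in the direction of the label in each library. Cd4 did so in MI-E. The Cd4 level of the other cells, given below, is near the floor in Sham and under it in MI, so neither library is settled. Detection of Trbc1 did not differ in that direction. It was found in 66.7%, 66.7% and 63.2% of members against 49.1%, 54.3% and 46.6% of the other cells. The level estimates of Trbc1 and Trbc2, given below, were lower in members but were not called.

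The plot of shares and of members by receptor genes shows that the Sham members fall into groups of cells with distinct transcripts. A type 17 core of 10 genes that included Il17a, Il17f, Il23r, Il1r1, Ccr6, Blk, Sox13, Cd163l1 and 5830411N06Rik was counted in each cell, beside a cytotoxic core of 12 genes that included Gzmb, Nkg7, Ccl5, Klrk1 and Ifng. In Sham, all 8 members with UMIs of both Trdc and Tcrg-C1 had a type 17 core UMI (interval 63.1 to 100%). None of the 14 Sham members with Trdc only had one (0 to 23.2%), nor did any of the 5 with Tcrg-C1 only. In MI-E the core was found in 22 of 22 members with both receptor genes, in 11 of 14 with Trdc only and in 19 of 21 with Tcrg-C1 only. In MI it was found in 5 of 6, 0 of 1 and 2 of 2.

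**Figure D1:**
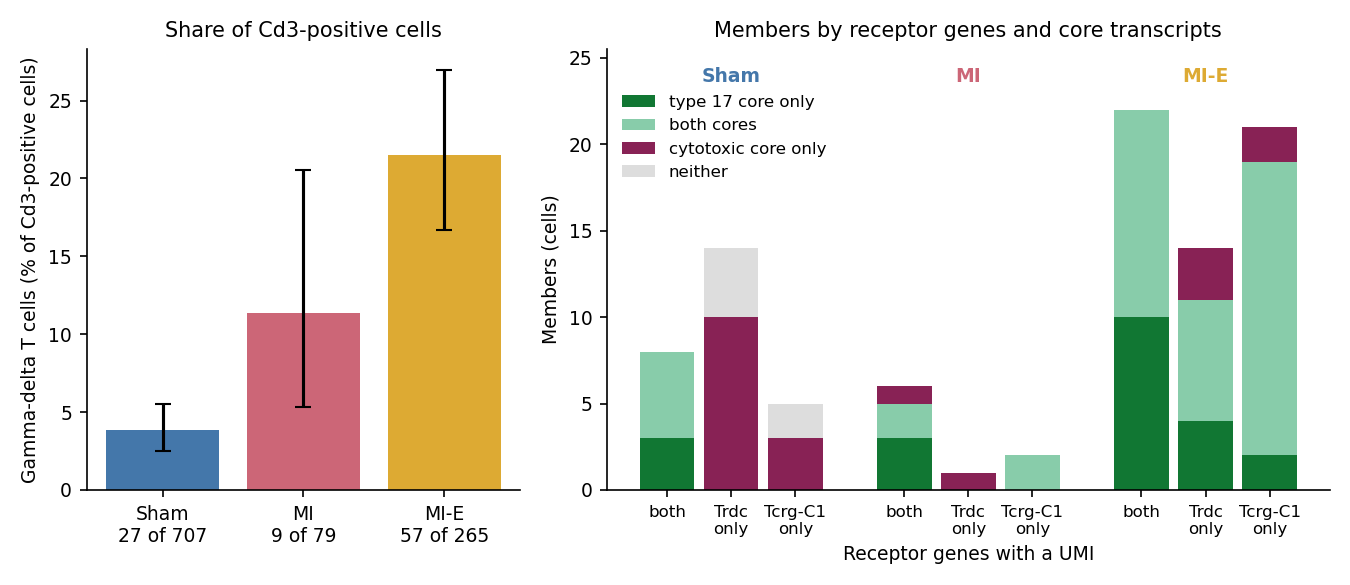
Left, gamma-delta T cells as a percentage of Cd3-positive cells in each library, with 95% Clopper-Pearson intervals and the numbers of cells below the bars. Right, numbers of members by the receptor genes with a UMI (both, Trdc only, Tcrg-C1 only) and by the presence of type 17 and cytotoxic core UMIs; all 8 Sham members with both receptor genes hold type 17 core UMIs, and the 19 with 1 of the genes hold none.

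Over all members, the type 17 core was found in 8 of 27 cells in Sham (29.6%, 13.8 to 50.2), 7 of 9 in MI (77.8%, 40.0 to 97.2) and 52 of 57 in MI-E (91.2%, 80.7 to 97.1). In other Cd3-positive cells it was found in 11 of 680 (1.62%), 5 of 70 (7.14%) and 46 of 208 (22.1%). The share of members with the core was above that of other Cd3-positive cells in each library. The 46 other cells of MI-E with the core included 29 with a Trac UMI and 17 without. Core UMIs per member ran from 0 to 10 (median 0) in Sham, 0 to 82 (median 4) in MI and 0 to 34 (median 6) in MI-E. Cytotoxic core UMIs without any type 17 core UMI were found in 13 of 27 Sham members, 2 of 9 MI members and 5 of 57 MI-E members. Among other Cd3-positive cells the counts were 333 of 680, 52 of 70 and 91 of 208, so in Sham the 2 shares were alike. Neither core was found in 6 Sham members and in 336 other cells of Sham.

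**Figure D2:**
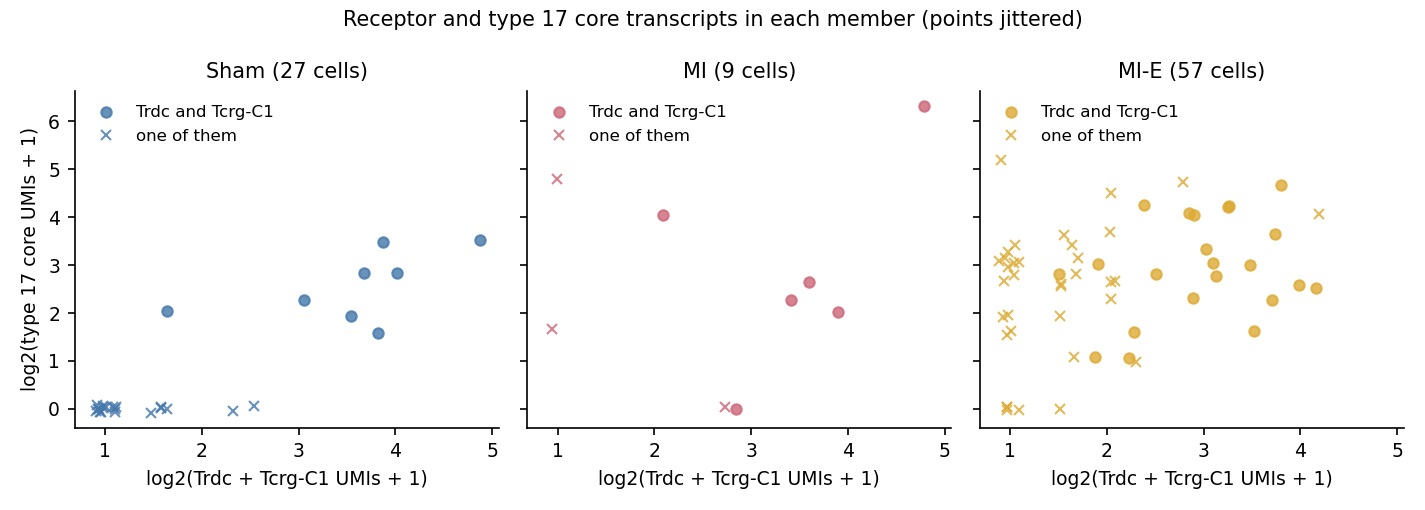
Each point is 1 member: UMIs of Trdc and Tcrg-C1 together on the horizontal axis and UMIs of the type 17 core on the vertical axis, both as log2(UMIs + 1), in Sham, MI and MI-E. Circles have both receptor genes and crosses have 1 of them; the crosses of Sham lie at 0 core UMIs, while most crosses of MI-E lie above it.

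The 2 kinds of Sham member differed across several genes that neither the receptor genes nor the core include. S100a4, a calcium-binding protein of activated and tissue T cells, stood at 4520 CPM in the 8 members with both receptor genes (175 UMIs, 8 cells) and at 181 CPM in the other 19 (15 UMIs, 2 cells). Il7r, the interleukin 7 receptor, stood at 2014 and 351 CPM. Cxcr6, a chemokine receptor of tissue T cells, had 21 UMIs in 7 of the 8 cells and 3 UMIs in 1 of the 19. In the opposite direction, Ccl5, a chemokine of cytotoxic and memory T cells, had 0 UMIs in the 8 cells and 243 UMIs in 11 of the 19. Lef1, a transcription factor of naive T cells, had 1 UMI in the 8 cells and 24 UMIs in 12 of the 19. Klf2, which maintains recirculation, stood at 155 CPM in the 8 cells and 955 CPM in the 19. The same split of the MI-E members did not separate S100a4 or Klf2: S100a4 was found in all 22 members with both receptor genes and in all 35 with 1 of them, at 3689 and 4370 CPM, and Klf2 stood at 109 and 129 CPM. It did separate cytotoxic genes and Cd163l1. Nkg7 was found in 0 of the 22 members with both receptor genes and in 11 of the 35 with 1 of them, and Gzmb in 3 and 14. Cd163l1 was found in 14 of the 22 and 7 of the 35. These splits rest on receptor genes that were used to choose the members, and are given as description.

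Variable segments separated members further. Trdv4, a delta variable segment, was found in 8 Sham, 5 MI and 12 MI-E members, with 44, 21 and 30 UMIs; it is read from the same transcripts as Trdc. Cd163l1, also known as Scart1, encodes a scavenger receptor of mouse gamma-delta T cells that make interleukin 17, and is carried mainly by cells with the gamma segment V6. It was found together with Trdv4 in 6 of the 8 Sham, 5 of the 5 MI and 10 of the 12 MI-E members with Trdv4. Tcrg-V6 itself was found in 5, 0 and 2 members, of which 4, 0 and 2 also had Trdv4. 5830411N06Rik, also known as Scart2, is a neighbouring gene on chromosome 7 for a related receptor. It was found in 1 Sham member, 0 MI members and 25 MI-E members, and of the 25 only 1 had Trdv4 and 6 had Cd163l1. In MI-E, Trdv4 and 5830411N06Rik thus marked mostly different members. Il17a was found in 5 of the 12 MI-E members with Trdv4 and in 13 of the 25 with 5830411N06Rik.

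The first comparison asked which genes set the members apart from other Cd3-positive cells of the same libraries. Gamma-delta T cells had more transcripts of a type 17 gene group, among them the cytokine Il17a, the scavenger receptor Cd163l1 and the membrane proteins Tmem176a and Tmem176b, and fewer of the alpha-beta receptor and coreceptor genes and of genes of naive, recirculating T cells. Of 4179 genes tested with edgeR's quasi-likelihood test on UMIs summed per library and class, with the library as a block, 70 passed a Benjamini-Hochberg adjusted p of 0.05 (1.68%). Of these, 40 were higher in members (0.957%) and 30 lower (0.718%). The 3 libraries are the replicates and leave 2 residual degrees of freedom. With library size scaling in place of TMM, 64 were higher and 18 lower. Without Sham 0 genes passed in either direction, against 16 higher and 8 lower without MI and 11 higher and 0 lower without MI-E, but every gene called with all 3 libraries that could be tested kept its sign: 69 of 69, 70 of 70 and 62 of 62. Trdc and Tcrg-C1 chose the members and are given only as levels: Trdc stood at 815, 790 and 571 CPM and Tcrg-C1 at 255, 403 and 277 CPM in members of Sham, MI and MI-E, and at 0 in the other cells by rule.

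Il17a encodes the cytokine that names the type 17 programme. It lies on chromosome 1 (GRCm38 20730905 to 20734496, + strand). In members it had 7 UMIs in 3 Sham cells, 104 UMIs in 3 MI cells and 128 UMIs in 24 MI-E cells. In the same order these are 57.6 CPM (23.2 to 119), 1551 (1267 to 1879) and 432 (361 to 514), against 0, 45.0 and 32.1 CPM in other Cd3-positive cells. Members were above the other cells in 3 of 3 libraries, with a log2 fold change of 4.51 ± 0.47 (SE, 3 libraries; edgeR adjusted p = 0.00203). In MI a single cell gave 67.3% of the UMIs, and in Sham 71.4%. In C1q-positive cells Il17a was found in 0 of 3975, 0 of 5500 and 2 of 3734 cells.

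Receptor genes of the type 17 group were also higher in members, Cd163l1 by the widest margin. It had 19 UMIs in 6 Sham members, 15 in 5 MI members and 67 in 21 MI-E members, which are 156, 224 and 226 CPM against 1.12, 0 and 10.7 CPM in other cells. Its log2 fold change was 5.45 ± 0.54 (edgeR adjusted p = 0.00172). The intervals of the levels in members overlapped across the 3 libraries (94.2 to 244, 125 to 369 and 175 to 287 CPM). Ltb4r1, the leukotriene B4 receptor, stood at 173, 194 and 341 CPM against 5.22, 47.1 and 73.0 (log2 fold change 2.71 ± 0.46). Ramp1, which joins the calcitonin gene-related peptide receptor, stood at 288, 581 and 388 CPM against 42.5, 47.1 and 159 (2.25 ± 0.38). Cxcr6 stood at 198, 224 and 790 CPM against 26.1, 128 and 201 (1.79 ± 0.33).

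The membrane proteins Tmem176a and Tmem176b lie side by side on chromosome 6 on opposite strands, their annotated ends overlap, and both are known in type 17 lymphocytes. Tmem176a stood at 445, 581 and 726 CPM in members of Sham, MI and MI-E against 18.3, 72.8 and 214 in other cells (log2 fold change 2.86 ± 0.45). Tmem176b followed at 412, 611 and 662 CPM against 25.4, 74.9 and 203 (2.68 ± 0.38). Each was found in 54 of 57 MI-E members, in 7 of 9 MI members and in 10 of 27 Sham members.

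Further called members of the group were the transcription factor gene Rora (log2 fold change 1.48 ± 0.24), the potassium channel gene Kcnk1 (4.09 ± 0.72), the water channel gene Aqp3 (2.15 ± 0.44), the actin crosslinker gene Actn2 (2.44 ± 0.36) and the protease inhibitor gene Serpinb1a (2.40 ± 0.39). Kcnk1 was sparse, with 4, 2 and 14 UMIs in members. Of the 25 genes of the type 17 list, 16 passed the filter on low counts, and 12 of these were called higher and 0 lower, with a median log2 fold change of 2.42 against −0.03 over all 4179 genes. The list was written with earlier results of these data known, so its count is no independent evidence of direction. The other 4 tested were Il22, Maf, Il1r1 and Il18r1, with log2 fold changes of 2.28, 1.05, 2.82 and 1.49 and edgeR adjusted p-values of 0.0802, 0.157, 0.111 and 0.0674.

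The 9 list genes that did not pass the filter included some that define the programme. Blk, a Src-family kinase needed for type 17 gamma-delta T cells in mice, had 3, 8 and 74 UMIs in 2, 3 and 33 members, at 24.7, 119 and 250 CPM against 1.87, 2.14 and 16.5 in other cells. Il23r, the receptor chain for interleukin 23, had 2, 1 and 10 UMIs. Sox13, a transcription factor of the gamma-delta lineage, had 1, 0 and 6 UMIs in members and 0 CPM in other cells of all 3 libraries. Ccr6 had 0, 0 and 3 UMIs. None of the 9 was tested.

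Genes outside the lists also set the members apart. Ly6g5b, of the Ly6 family, had a log2 fold change of 3.24 ± 0.61, Pxdc1 of 3.13 ± 0.59, Prelid2 of 2.83 ± 0.43, Nav2 of 2.56 ± 0.54 and Ckb, the brain-type creatine kinase, of 2.26 ± 0.43. Ckb stood at 165, 641 and 176 CPM in members of Sham, MI and MI-E against 26.5, 42.8 and 77.8 in other cells. Nav2 rested on few UMIs, with 4, 2 and 8 in members. Apart from the genes of the rule, Trdv4 had the largest change among genes higher in members, 7.36 ± 0.43, but it shares transcripts with Trdc and is no independent result. Il7r (1.14 ± 0.19), S100a4 (1.63 ± 0.28) and the cytokine gene Ltb (1.04 ± 0.19), of the lists for cytokine receptors, residency and secreted factors, were called higher too.

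**Figure D3:**
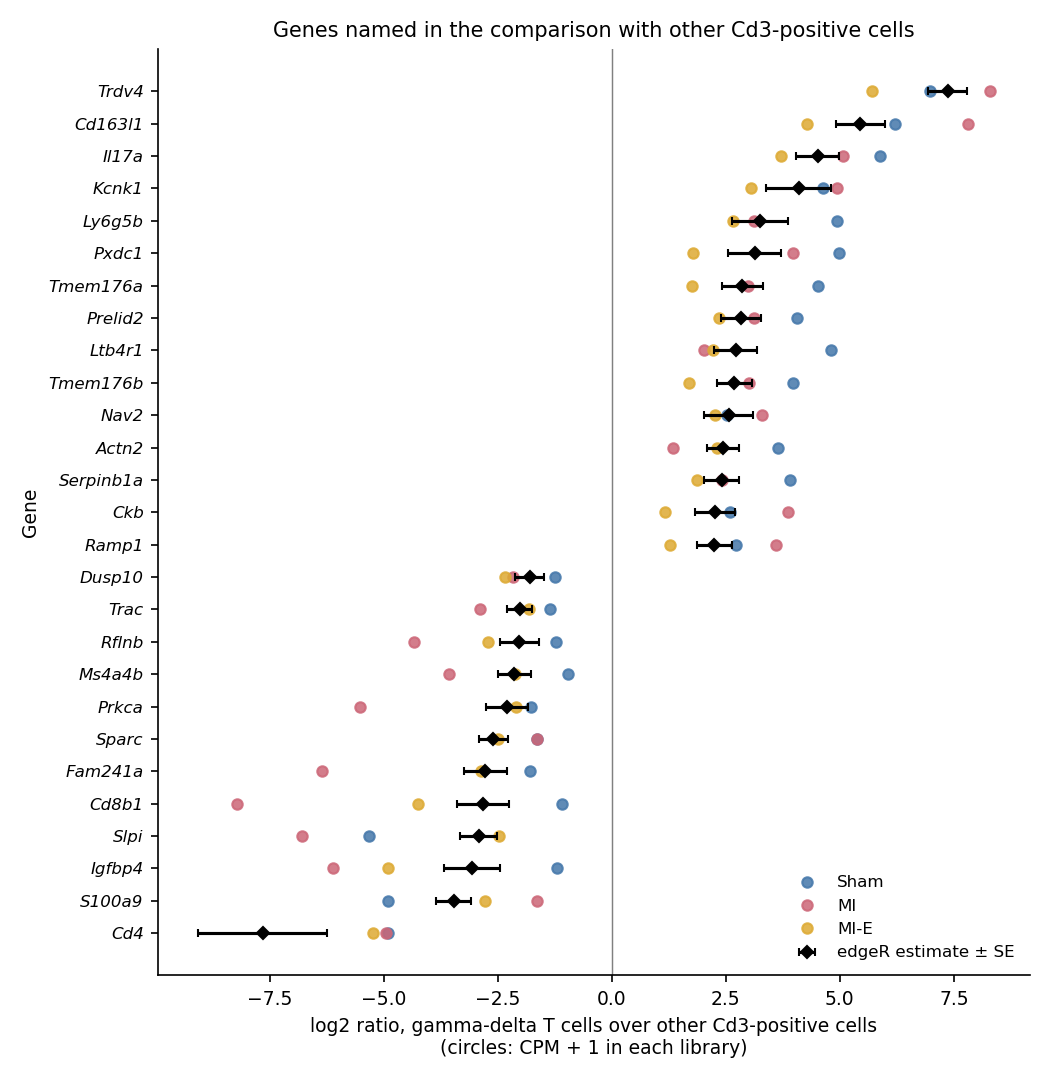
Log2 ratio of gamma-delta T cells over other Cd3-positive cells for the 15 highest and 12 lowest genes called by the naming rule. Circles are the ratio of CPM + 1 in each library and diamonds the edgeR estimate ± SE over 3 libraries; the circles of all 3 libraries lie on the same side of 0 for each gene, and Il17a and Cd163l1 are far to the right in all of them.

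Among genes of the alpha-beta receptor and its coreceptors, 10 of 11 passed the filter, 0 were called higher and 4 were called lower: Trac, Cd4, Cd8b1 and Cd28. The median log2 fold change was −1.84, against −0.03 over all genes tested, of which 0.718% were called lower. Trac stood at 132, 59.6 and 97.9 CPM in members of Sham, MI and MI-E against 339, 447 and 347 in other cells (log2 fold change −2.02 ± 0.27, edgeR adjusted p = 0.0125). Cd4 had 0 UMIs in members against 29.1, 30.0 and 37.0 CPM in other cells (fitted log2 fold change −7.66, edgeR adjusted p = 0.0452), a fitted value that depends on the prior count and is no bound. The levels of other cells in Sham and MI-E lie above what 3 counts would give in members, and that of MI lies below it. Cd8b1 stood at 98.8, 0 and 6.75 CPM against 213, 298 and 147, and the 12 UMIs of the Sham members lay in 4 cells. Cd28, the costimulatory receptor, had a change of −1.35 ± 0.28. The beta constant genes did not pass: Trbc1 had a log2 fold change of −0.46 (edgeR adjusted p = 0.335) and Trbc2 of −0.51 (0.174).

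Of 12 genes of naive and recirculating T cells, 11 passed the filter and 4 were called lower: the chemokine receptor Ccr7, the sphingosine receptor S1pr1, the transcription factor Klf2 and Igfbp4. Their log2 fold changes were −1.46 ± 0.29, −1.47 ± 0.23, −1.62 ± 0.32 and −3.07 ± 0.61. None of the 11 had a positive estimate, against 1942 of all 4179 genes tested, of which 0.718% were called lower. This list and the alpha-beta list were also written with earlier results of these data known. Their counts are no independent evidence of direction. Lef1 (−1.68, edgeR adjusted p = 0.111) and Tcf7 (−1.34, 0.0542) did not pass. Klf2 stood at 700, 104 and 122 CPM in members of Sham, MI and MI-E, against 1012, 383 and 598 in other cells, so it was lower than in the other cells by the smallest factor in Sham.

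Of 25 type 1 and cytotoxic genes, 16 passed the filter, 0 were called higher and 1 lower, Nkg7 (−1.61 ± 0.24), a protein of cytotoxic granules. Klrk1, which encodes the activating receptor NKG2D, was found in 4, 4 and 28 members and did not pass (1.12, edgeR adjusted p = 0.191). Ifng had 12, 4 and 20 UMIs in 3, 2 and 2 members (0.20, edgeR adjusted p = 0.938). In MI-E the cytotoxic core was carried mostly by Klrk1, Gzmb (17 cells) and Nkg7 (11 cells), and in Sham by Ccl5 (11 cells).

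Calls on the remaining lists were few. The lists for T cell receptor signalling, interferon response and glucocorticoid targets had 1 call each, all lower (Cd2, Ifi27l2a and Tsc22d3), and heat shock had 1, higher (Hspa1b). Of the 50 Hspa1b UMIs in Sham members 78.0% came from 1 cell. There were 0 calls among 17 immediate early genes, 19 of proliferation, 15 of glycolysis, 19 of oxidative phosphorylation and 8 of fatty acid handling that passed the filter. At an unadjusted p of 0.05, edgeR gave 2, 9, 0, 0 and 1 genes there. On simulated counts for this comparison, the test recovered 38 of 71 genes changed 4-fold and 3 of 66 changed 2-fold, with 0 false calls. Differences of 2-fold were thus mostly not detectable there. The simulation gave all genes 1 dispersion and all libraries the same profile, with no genes concentrated in single cells. Its rates of recovery and of false calls may therefore not hold for the real counts.

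Several genes called lower have high levels in other cell types. S100a9, a neutrophil alarmin, stood at 16.5, 0 and 138 CPM in members against 521, 2.14 and 963 in other cells (log2 fold change −3.47 ± 0.38). Slpi had a change of −2.92 ± 0.40. The summed level of 10 neutrophil markers was 16.5, 104 and 392 CPM in members and 1046, 25.7 and 1990 CPM in other Cd3-positive cells of Sham, MI and MI-E; Ngp was at 0 in members of all libraries. Sparc (−2.60 ± 0.32) rested on 9, 1 and 9 other cells of Sham, MI and MI-E, with 69.1% of the 551 MI-E UMIs in 1 cell. The fibroblast markers summed to 920 CPM in the other cells of MI-E and 64.2 in its members. The part of such transcripts in these calls was not tested. The other genes named lower were Fam241a (−2.77 ± 0.46), Prkca (−2.29 ± 0.46), Ms4a4b (−2.14 ± 0.35), Rflnb (−2.03 ± 0.42) and Dusp10 (−1.80 ± 0.32).

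The second set of comparisons set members of 1 library against members of another, with no test. MI-E against Sham and MI against Sham share the Sham members, and the values of each are given side by side. MI-E was at least 2-fold higher than Sham for 460 of 2555 genes with a mean of at least 50 CPM (18.0%) and at least 2-fold lower for 172 (6.73%). MI was at least 2-fold higher than Sham for 539 of 2474 genes (21.8%) and lower for 256 (10.3%). MI-E was at least 2-fold higher than MI for 293 of 2698 (10.9%) and lower for 293 (10.9%). A gene can pass this filter through its level in 1 library alone, so the counts for gene lists below are description only. Over all genes the log2 ratios had medians of 0.22, 0.27 and −0.01. Scaled with TMM factors, the medians were 0.02, −0.14 and 0.17, and the splits became 333 higher and 281 lower, 313 and 476, and 335 and 180, so the balance of directions depends on the scaling. The mixture of cells in Sham described above is part of each contrast with it.

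In MI-E against Sham, the type 17 list had a median log2 ratio of 1.05, with 9 of 18 measured genes at least 2-fold higher and 0 lower. In other Cd3-positive cells of the same libraries the median was 2.91. Il17a in MI-E members was 7.5 times its Sham level (3.54 to 19.0), Blk 10.1-fold (3.33 to 50.2) and Cxcr6 4.0-fold (2.62 to 6.37). Cd163l1 was 1.45-fold higher with an interval that includes 1 (0.858 to 2.55). In MI against Sham, Il17a was 26.9-fold higher (12.6 to 68.6), Blk 4.83-fold (1.16 to 28.3), Cxcr6 1.13-fold (0.552 to 2.25) and Cd163l1 1.43-fold (0.676 to 2.97). Il17a rested on 3 cells in each of these 2 libraries, with most UMIs in 1 cell, a spread that the interval does not cover. Restricted to members with both receptor genes, Il17a stood at 181 CPM in 8 Sham cells, 1913 in 6 MI cells and 508 in 22 MI-E cells. Most Cxcr6 UMIs of Sham lay in those 8 cells, so its ratios also depend on the mixture of Sham members.

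5830411N06Rik separated MI-E from both other libraries. It lies on chromosome 7 (GRCm38 140247284 to 140300736, + strand), just downstream of Cd163l1 at 140218267 to 140231145 on the same strand. Its 98 UMIs in MI-E came from 25 members and at most 15.3% from 1 cell, at 331 CPM (269 to 403). In Sham 2 UMIs came from 1 cell, and the ratio of MI-E to Sham was 20.1 (5.42 to 168). In MI it had 0 UMIs, and MI-E was 7.40-fold above a floor of 3 counts over the MI members, a ratio that is no lower bound. In other Cd3-positive cells it stood at 1.12, 6.42 and 5.84 CPM. Among members with both receptor genes it was found in 1 of 8 cells of Sham, 0 of 6 of MI and 9 of 22 of MI-E.

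Il22, an epithelial repair cytokine, had 0 UMIs in Sham members, 8 UMIs in 1 MI member and 69 UMIs in 8 MI-E members, of which 52.2% lay in 1 cell. MI-E stood at 233 CPM (181 to 295), 9.43-fold above a floor of 3 counts over the Sham members. A ratio to this floor is no lower bound. Gzmb, the protease granzyme B, had 0, 12 and 83 UMIs in 0, 4 and 17 members. Its level in MI-E was 280 CPM (223 to 347), 11.3-fold above the same Sham floor, and 213 CPM in the other Cd3-positive cells of MI-E. Ly6a, an interferon-inducible surface protein, stood at 74.1, 149 and 638 CPM in 3, 5 and 42 members, 8.61-fold higher in MI-E than in Sham (4.44 to 19.1) and 4.28-fold higher than in MI (2.28 to 9.07).

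**Figure D4:**
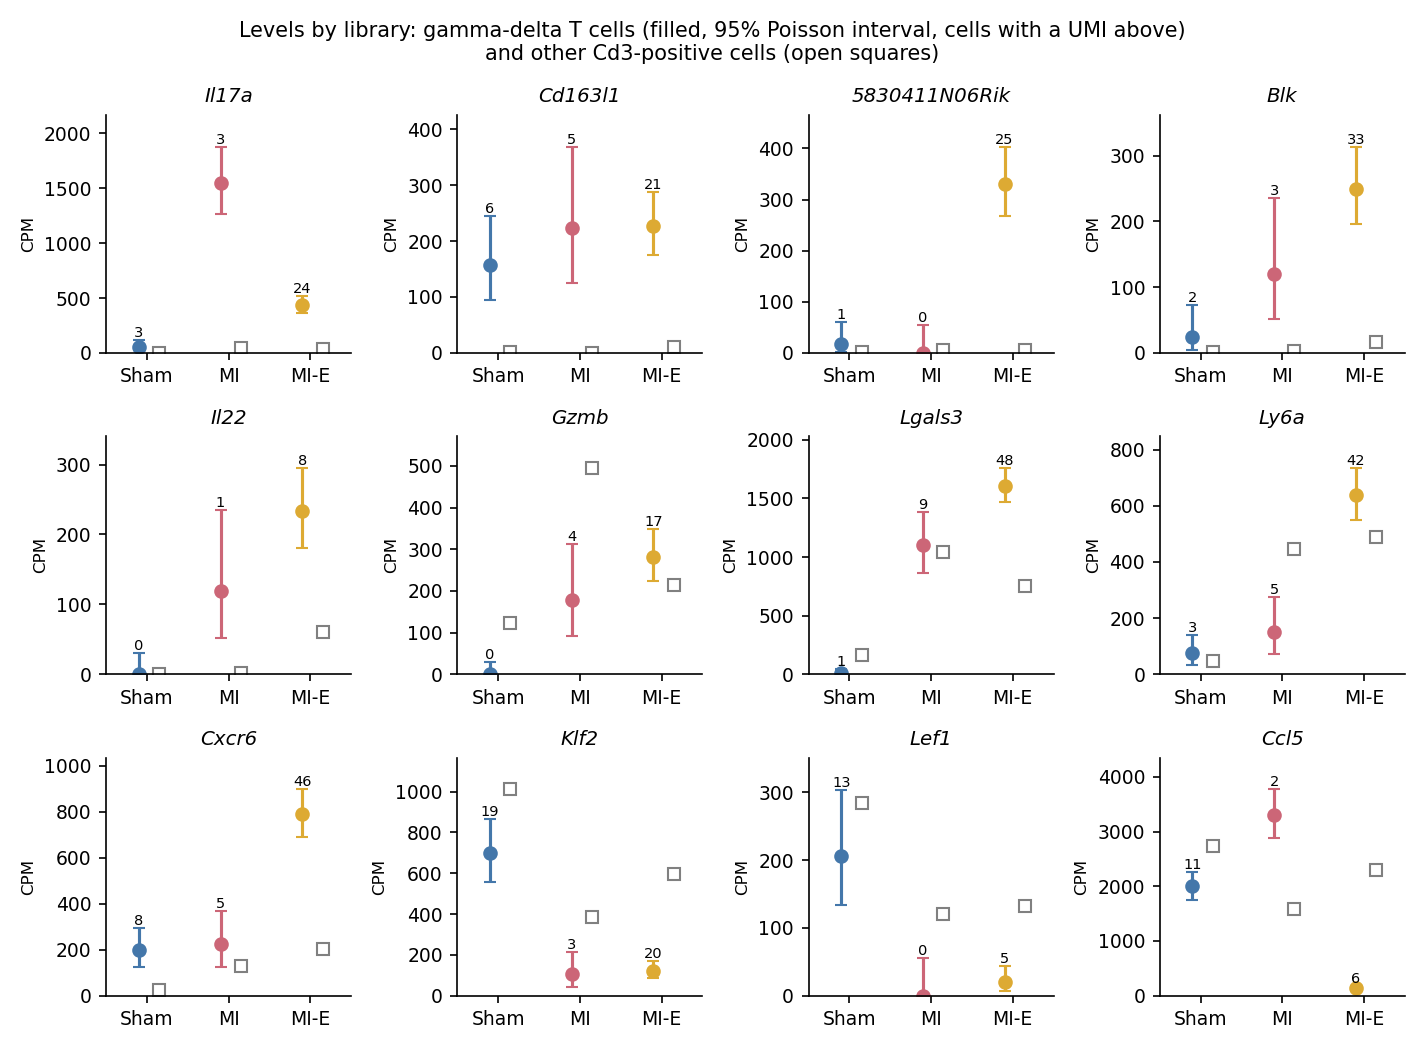
Levels of 12 genes in CPM by library. Filled circles are gamma-delta T cells with 95% Poisson intervals and the number of members with a UMI above each, and open squares are other Cd3-positive cells; 5830411N06Rik is high in MI-E members alone, with 25 cells, and Klf2 and Lef1 are highest in Sham.

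Members of MI-E also had more residency and interferon transcripts than those of Sham. Of 12 measured residency and activation genes 9 were at least 2-fold higher in MI-E and 0 lower (median log2 ratio 1.47, against 1.92 in other Cd3-positive cells). S100a4 stood at 1565 CPM in Sham members, 2475 CPM in MI members and 4116 CPM in MI-E members, a ratio of MI-E to Sham of 2.63 (2.26 to 3.08). By the levels given above, S100a4 was lower in MI-E than in Sham among members with both receptor genes, and higher among the remaining members. Vim, an intermediate filament gene, was 4.34-fold higher in MI-E (3.26 to 5.88) and 5.01-fold higher in MI (3.63 to 7.02). Cd44 was 4.51-fold higher in MI-E (2.36 to 9.67). Of 8 interferon response genes 7 were at least 2-fold higher in MI-E than in Sham and 0 lower (median 1.76, against 1.87 in other cells); Isg15 was 4.0-fold higher (2.20 to 7.96) and Bst2 3.30-fold (2.11 to 5.40). The type 17, residency and interferon shifts were all present in other Cd3-positive cells as well, and a difference between the classes was not tested.

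Genes of naive T cells ran the other way. Of 8 measured, 6 were at least 2-fold lower in MI-E than in Sham and 0 higher (median −2.56, against −0.75 in other cells), and 5 were lower in MI (median −1.55). Over all measured genes 6.73% were lower in MI-E and 10.3% in MI. Only 3 naive genes passed the filter in MI-E against MI. Most of the 8 thus passed it through their level in Sham, which favours this direction. Lef1 had 25 UMIs in 13 Sham members, 0 in MI and 6 UMIs in 5 MI-E members, and was 10.2-fold higher in Sham than in MI-E (4.07 to 30.3). Klf2 was 5.76-fold higher in Sham than in MI-E (3.86 to 8.76) and 6.71-fold higher than in MI (3.12 to 17.2). Ccr7 was 6.58-fold higher (3.09 to 15.2) and Ccl5 14.8-fold higher (10.6 to 21.3) in Sham than in MI-E. For Ccl5 and Ccr7 this difference lay in the Sham members with 1 receptor gene: in the 8 with both genes the counts were 0 and 0, against 1 and 2 UMIs in 22 MI-E members. Klf2 stood at 155 CPM in those 8 Sham cells and 109 in the 22 MI-E cells. Tubb2a, Gramd3, Socs3 and Hspa1b, also named by the rule, were 4.88- to 5.99-fold higher in Sham than in MI-E. Most Hspa1b UMIs of Sham came from a single cell, as given above, so its ratio rests mainly on that cell. For Tubb2a and Gramd3 the ratio had the opposite sign among members with both receptor genes.

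Genes of macrophages and monocytes were among the most different between libraries and need their cell counts. Lgals3, which activated T cells and macrophages both express, had 1 UMI in Sham members, 74 UMIs in all 9 MI members and 476 UMIs in 48 of 57 MI-E members. The MI-E to Sham ratio was 195 (34.9 to 7725), and 35.1% of the MI-E UMIs lay in 1 cell. Spp1 had 0, 121 and 257 UMIs, with 90.9% of the MI count and 63.0% of the MI-E count in 1 cell. The chemokine genes Ccl2, Ccl7 and Ccl12 had 243, 159 and 260 UMIs in MI-E members, of which 81.1%, 83.6% and 96.2% lay in 1 cell. Il1b had 0, 49 and 113 UMIs. The 12 macrophage markers summed to 403, 3235 and 2114 CPM in members of Sham, MI and MI-E, against 644, 2402 and 2262 in other Cd3-positive cells and 63123, 31210 and 30815 in C1q-positive cells. Of the 12, 7 were detected in Sham members, with Adgre1, Mrc1, Cd68, Ms4a7 and Fcgr1 at 0, and all 12 in MI and MI-E. The part of macrophage transcripts in these ratios was not tested.

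The 9 MI members differed from both other libraries in genes of the cell cycle. Of 14 measured proliferation genes 13 were at least 2-fold higher in MI than in Sham and 0 lower (median log2 ratio 3.84, against 3.34 in other Cd3-positive cells). MI-E was at least 2-fold lower than MI for 15 of 17 (median −2.04, against −1.35). The same shares over all measured genes were 21.8% and 10.9%. Only 6 proliferation genes passed the filter in MI-E against Sham. Most of the 14 and 17 thus passed it through their level in MI, which favours these directions. Mki67 had 0, 9 and 2 UMIs in 0, 3 and 2 members, and Top2a 0, 16 and 17 UMIs in 0, 3 and 8 members. Pclaf, a replication clamp partner, had 0, 30 and 29 UMIs in 0, 3 and 4 members, at 447 CPM in MI (302 to 639). Nusap1 and Smc2 had 18 UMIs each in MI, in 3 and 4 members, and 3 and 4 UMIs in MI-E. The proliferation counts of MI thus lay in 3 to 4 of its 9 members for each of these genes.

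Other genes named by the rule for contrasts with MI rested mostly on 1 cell. Gzma (31 UMIs), Cxcl3 (81 UMIs) and Arg1 (27 UMIs) lay in 1 MI member each. Without predicted doublets, which removed 1 MI member, the log2 ratios of MI-E to MI for Cxcl3 and Arg1 turned from −4.29 and −3.85 to 4.57 and 4.78. The turned values rest on counts of 0 in MI. A single cell gave 96.3% of Cx3cr1, 91.4% of Ptgs2, 87.4% of Ifitm1 and 65.8% of Ccl5 UMIs in MI. Fabp4 was 0 in MI and had 128 UMIs in Sham members, 98.4% of them in 1 cell. Hspa1b, Hspa1a, Dnajb1 and Paxbp1 were lower in MI than in Sham, with ratios of Sham to MI of 27.6, 9.94, 5.34 and 5.71. The Hspa1b ratio rests mainly on the single Sham cell that gave most of its UMIs. Higher in MI-E than in MI were Rhoh (6.91-fold, 1.83 to 58.3), Irf7 (4.68-fold, 1.53 to 23.3), Smpdl3a (4.53-fold, 1.7 to 17) and Tsc22d4 (4.25-fold, 1.59 to 16). One MI-E cell gave 60.7% of the Rhoh and 50% of the Irf7 UMIs, whereas Smpdl3a and Tsc22d4 were spread over 39 and 41 members.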

How the data were processed

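Single-cell RNA libraries of CD45-sorted heart leukocytes, made with 10x Genomics 3' chemistry v3.1, were analysed, 1 per group. Per the submitters' processing notes and the file headers, the authors used Cell Ranger 5.0.1 with mm10; the release of the annotation is not stated there. The deposited values are raw UMI counts for 32285 genes per called cell. Barcodes were kept from 200 genes upward and up to 10% mitochondrial UMIs. Scrublet (scanpy 1.11.5) predicted 436 (Sham), 643 (MI) and 311 (MI-E) doublets, taking the expected rate of 0.8% per 1000 barcodes in MI; they stayed in the main values and 0, 1 and 2 of them were members.

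UMIs of members and of other Cd3-positive cells were summed per library. The classes were compared with edgeR 4.0.16 (R 4.3.3; quasi-likelihood test, TMM, filterByExpr, library as a block, adjusted p under 0.05), checked on simulated counts with 3914 genes tested. Libraries were compared without a test, as CPM with exact Poisson intervals, ratios with exact conditional intervals and log2 of CPM + 1; a gene at 0 was set to 3 counts over the members. C1q-positive cells had at least 10 C1q UMIs.

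The members, the 17 gene lists and the core genes were chosen with earlier results of these data known. Genes named are the 15 highest and 12 lowest log2 fold changes among called genes with 1 direction in all libraries, and, per library contrast, the 8 highest and 8 lowest log2 ratios among genes that reached 200 CPM and were found in 10% or more of the members of the higher library. Genes of the rule, mitochondrial, ribosomal, immunoglobulin and haemoglobin genes and predicted models were left out, and list genes and markers may be named by role. The values of 2 genes, 1 of them in the type 17 core, are not reported here. Genomic positions are from GENCODE on GRCm38, the build also named mm10, in which 32158 gene IDs were found. Alternatives were DESeq2 1.42.0, other scalings, filters, pseudocounts and member rules, thinning to 1000 UMIs, removal of doublets and leaving out each library.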

Additional observations from a re-analysis of the deposited data

How the results depend on the processing

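No paired analysis was possible because the labels give each group 1 library and no shared replicate number; the library was already a block in the comparison of classes. That comparison, with 40 genes higher and 30 lower, gave 45 and 19 with DESeq2, 64 and 18 with library size only, and 100 and 210 without the filter on low counts. With at least 2 receptor UMIs per member 59 genes were lower. Without predicted doublets 64 were higher. With C1q at 0 in both classes 15 were higher and 8 lower, among 2069 genes tested. Leaving out each library gave 0 to 16 higher and 0 to 8 lower. With members without Trac, a rule added after seeing the data, 63 were lower. Each gene called in the main comparison kept its sign wherever it was tested, and of the 70, 53 were called by DESeq2. Of the 15 highest and 12 lowest genes named, DESeq2 did not call Kcnk1, Ly6g5b, Nav2, Cd4, S100a9, Cd8b1, Sparc, Prkca or Rflnb. It gave Kcnk1, Ly6g5b, Nav2 and Cd4 no adjusted p.

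For the library contrasts, no filter on low genes gave 4331 higher and 1936 lower for MI-E against Sham, 2484 and 2944 for MI against Sham, and 4614 and 1917 for MI-E against MI. TMM factors gave 281 lower for MI-E against Sham, 313 higher and 476 lower for MI against Sham, and 180 lower for MI-E against MI. With members holding both receptor genes, also added after seeing the data, 541 genes were lower in MI-E and 626 in MI than in Sham. In those members the log2 ratios of MI-E to Sham turned to 3.33 for Ccl5, 4.26 for Ccr7, 0.48 for Tubb2a and 5.22 for Gramd3, on counts of 0 in Sham for all but Tubb2a. For MI-E against MI, Ccl12 turned to −0.45 without doublets, −1.51 in members without Trac and −0.80 without its top cell. Ccl7 turned to −1.51 in members without Trac. Without doublets Cxcl3 turned to 4.57 and Arg1 to 4.78, and without the top cell Gzma turned to 2.13, Cxcl3 to 5.95 and Arg1 to 4.81. These values for Cxcl3, Arg1 and Gzma rest on counts of 0 in MI, and Gzma had 1 UMI in MI-E.

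The share of Cd3-positive cells in Sham was 1.98% with at least 2 receptor UMIs, 1.13% with both receptor genes and 0.283% without Trac, Trbc1 and Trbc2. In MI the last rule gave 0%. In MI-E the share was 14.7% with at least 2 receptor UMIs, 15.1% without Trac, 8.30% with both genes, 16.4% after thinning and 0% without Trac, Trbc1 and Trbc2; the order Sham, MI, MI-E held under all rules but that one. Members with a type 17 core UMI were 57.1% in Sham and 97.4% in MI-E with at least 2 receptor UMIs, 100% in both with both genes, and after thinning 50% in Sham (6 of 12), 100% in MI (3 of 3) and 75.0% in MI-E (18 of 24), a narrower gap between Sham and MI-E. No edgeR fit or library contrast was run on members without Trac, Trbc1 and Trbc2, of which there were 2 in Sham and 0 in MI and MI-E. The causes of these changes were not tested.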
